A study of Mus musculus with 8 samples.

Results

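Chromatin that was accessible in untreated cells at day 7 of cardiac differentiation (D7 control) was compared with chromatin accessible at day 5 (D5 control). The members were the accessible regions on chromosomes 1 to 19 of 2 deposited peak lists, with overlapping peaks of a list merged: 37973 D7 control regions and 38281 D5 regions, 76254 of the 121250 regions that all 3 lists of the series held on chromosomes 1 to 19, X and Y. The assay was ATAC-seq: the enzyme Tn5 cuts and tags DNA where chromatin is open, and the tagged fragments are sequenced. All cells were cardiac progenitors derived from mouse embryonic stem cells of the line GLI1-FTA, strain A2Lox.cre; the D5 control group (2 libraries) and the D7 control group (3 libraries) were untreated. The further D7 group (3 libraries, called GLI1 here) had received 500 ng/ml doxycycline for 48 h to overexpress GLI1, and served only to see whether a region was present in another D7 list. Its GLI1 and doxycycline effects cannot be told apart. From each sample 150000 cells were taken, and transposition lasted 30 min at 37 C. Each group had 1 pooled peak list, so no value below has a replicate, and no test between the days was possible. The assignment of the D7 control list to D7 is an inference from its name and from D5 having a list of its own. All folds are the authors' fold enrichment of a peak over the background of the peak caller. Folds of different lists are printed side by side only to give the value in each list. Their sizes are not comparable between lists, so lists were compared by presence or by rank.

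During this stretch of culture, embryonic stem cells pass through a state like the primitive streak, form mesoderm, and then enter the cardiac lineage. T (Brachyury), Eomes and Mixl1 are transcription factors of the streak, Mesp1 marks the earliest cardiac mesoderm, and Isl1, Tbx1, Nkx2-5 and Hand2 are factors of the heart fields. Hedgehog signalling, in which ligands relieve the repression of Smo by Ptch1 and so activate GLI factors, acts on second heart field progenitors, and Ptch1 and Gli1 are themselves targets of the pathway. ATAC-seq shows whether a promoter or enhancer is accessible, not whether its gene is transcribed.

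The promoters of 6 genes are shown because a region of 1 control list covered them and the other control list had no region within 1000 bases of the start, also at a −log10 q of at least 5. Each is the 250 bases before a gene start in the RefSeq table of GRCm38.p6 (mm10), 5′ to 3′ on the gene's strand. Capitals mark matches, on either strand, to the motifs searched: GGGCGG for the GC box, CCAAT for the box of that name, TATAAA for the TATA box, AGATAA for the GATA motif, AGGTGTGA for the T-box half-site and ATGCAAAT for the octamer. In the T promoter a GC box and a CCAAT box overlap. The first 3 promoters were in D5 regions: T at chr17:8434173-8434422 (plus strand, 142 of the 250 bases within the D5 region), Zfp42 at chr8:43307010-43307259 (minus strand, 187 bases) and Nppb at chr4:147985650-147985899 (plus strand, 248 bases). The next 3 lay wholly in D7 control regions: Tbx1 at chr16:18588900-18589149 (minus strand), Meis1 at chr11:19018970-19019219 (minus strand) and Hes5 at chr4:154960673-154960922 (plus strand).
T: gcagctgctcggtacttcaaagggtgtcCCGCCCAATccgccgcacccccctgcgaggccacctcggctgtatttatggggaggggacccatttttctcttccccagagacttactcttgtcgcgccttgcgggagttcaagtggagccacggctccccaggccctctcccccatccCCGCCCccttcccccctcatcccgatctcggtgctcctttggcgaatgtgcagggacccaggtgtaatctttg
Zfp42: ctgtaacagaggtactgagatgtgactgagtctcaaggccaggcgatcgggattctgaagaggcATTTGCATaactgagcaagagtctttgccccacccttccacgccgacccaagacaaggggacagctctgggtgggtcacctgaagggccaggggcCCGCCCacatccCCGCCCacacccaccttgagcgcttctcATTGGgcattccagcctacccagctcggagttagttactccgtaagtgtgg
Nppb: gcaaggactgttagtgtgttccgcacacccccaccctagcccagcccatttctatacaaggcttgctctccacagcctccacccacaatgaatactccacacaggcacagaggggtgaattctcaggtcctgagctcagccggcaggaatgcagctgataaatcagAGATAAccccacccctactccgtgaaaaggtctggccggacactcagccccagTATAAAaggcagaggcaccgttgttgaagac
Tbx1: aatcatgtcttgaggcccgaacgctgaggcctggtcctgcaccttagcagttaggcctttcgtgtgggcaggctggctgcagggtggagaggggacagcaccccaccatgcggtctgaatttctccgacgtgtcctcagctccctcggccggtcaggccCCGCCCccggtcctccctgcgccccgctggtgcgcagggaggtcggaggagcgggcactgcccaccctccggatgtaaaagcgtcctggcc
Meis1: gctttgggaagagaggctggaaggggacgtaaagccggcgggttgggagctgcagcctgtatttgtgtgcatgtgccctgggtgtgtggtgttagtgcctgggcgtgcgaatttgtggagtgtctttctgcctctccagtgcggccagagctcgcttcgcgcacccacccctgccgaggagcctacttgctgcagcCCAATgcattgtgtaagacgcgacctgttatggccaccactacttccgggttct
Hes5: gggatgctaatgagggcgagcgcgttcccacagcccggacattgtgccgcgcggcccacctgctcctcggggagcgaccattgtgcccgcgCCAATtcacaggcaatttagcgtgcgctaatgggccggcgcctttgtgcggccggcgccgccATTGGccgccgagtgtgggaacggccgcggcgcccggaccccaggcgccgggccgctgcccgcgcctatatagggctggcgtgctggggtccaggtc
The Zfp42 promoter held an octamer, 2 GC boxes and a CCAAT box. The Nppb promoter held a TATA box and a GATA motif, and only 5 CpG dinucleotides. The Hes5 promoter held 2 CCAAT boxes and 32 CpG dinucleotides. None of the 6 had the T-box half-site. A match describes the letters in the window and is not evidence of binding.

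The control lists shared about as many regions as they did not. Of 37973 D7 control regions, 21051 (55.4%; Wilson 95% interval 54.9 to 55.9) had no D5 region and are called opened, and 16922 overlapped a D5 region by at least 1 base and are called kept. Of 38281 D5 regions, 19184 (50.1%; 49.6 to 50.6) had no D7 control region and are called closed, and 19097 were kept. These intervals, here and below, cover counting error only. The kept regions were the wide and strong ones: they held 66.5% of the bases of the D7 control list and 68.0% of those of the D5 list. In the D7 control list, kept regions had a median fold of 15.7 and a median width of 960 bp, against 4.32 and 310 bp for opened regions. In the D5 list the kept regions had a median fold of 7.44 and a width of 403 bp, against 5.09 and 177 bp for closed regions. The lists themselves differed in extent, which moves with these counts: D5 regions had a median width of 238 bp and covered 12.7 Mb, and D7 control regions had a median width of 477 bp and covered 26.6 Mb. When only regions with a −log10 q of at least 5 were compared, closed regions numbered 8278. The part of depth and calling in the overlap was not tested.

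Ranked by fold within its list, a stronger region was more often kept. Among D7 control regions the kept share was 10.3% in the weakest decile, 38.7% in the sixth and 96.5% in the strongest decile (3649 of 3783). Among D5 regions it was 37.3% in the weakest decile, 28.1% in the next and 89.7% in the strongest (3435 of 3828). Opened regions were found in the GLI1 list in 47.6% of cases (10016 of 21051), and that share also went up with strength, from 24.6% in the weakest decile to 133 of 134 in the strongest. Closed regions were found there in 12.6% of cases (2408 of 19184), and in no decile did the share leave the range of 8.91% to 14.3%. Of kept regions, 93.7% at D7 and 94.0% at D5 were in the GLI1 list. Nearly all strong opened regions were thus also in the GLI1 list, and most closed regions were absent from it. By their names, both D7 lists shared a removal of peaks that the name of the D5 list lacks. Day and processing therefore cannot be told apart here.

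**Figure D1:**
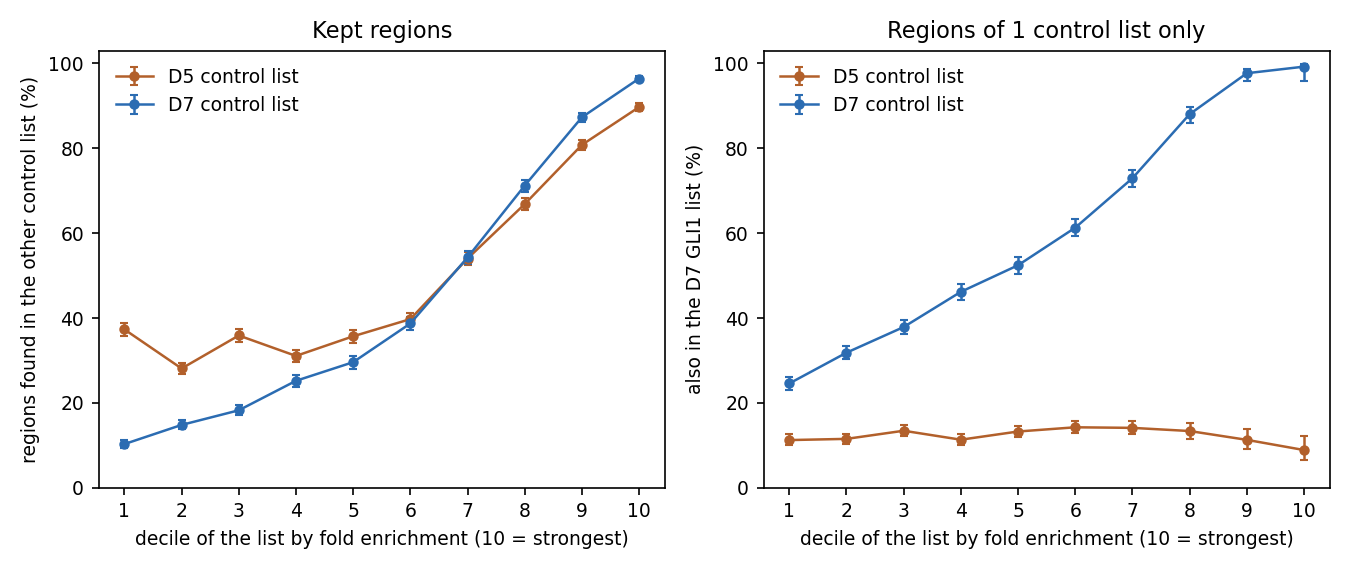
Regions by decile of fold enrichment within their own list (x axis; 10 is the strongest, and tied folds make deciles unequal in size). The left panel gives the percent of regions that overlapped the other control list, and the right panel the percent of regions found in 1 control list only that the D7 GLI1 list also held; bars are Wilson 95% intervals. The kept share reached 96.5% at D7 and 89.7% at D5, and the right panel separates opened regions (24.6% to 99.3%) from closed ones (8.91% to 14.3%).

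The 8 strongest opened regions lay near Ampd3, Tcf4, Gm44812, Laptm5, Bop1, Capn2, Lmx1b and Gprc5c. The highest, at chr7:110753322-110755209 (mm10), was 13.6 kb from Ampd3, an AMP deaminase gene. Its fold was 88.9, and the GLI1 list had a region there with 39.8. The region within Tcf4, a basic helix-loop-helix factor, had a fold of 71.6 and the one within Lmx1b, a LIM homeobox factor, 58.9, with 37.7 and 53.9 in the GLI1 list. The region within Gprc5c had 57.2, and the one in the GLI1 list 15.6. All 8 were 1397 to 3297 bp wide and present in the GLI1 list.

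The strongest closed regions need a measurement beside them. The peaks of the D7 control list are numbered along the genome, and 967 numbers are missing on chromosomes 1 to 19, in 398 spans between neighbouring peaks; the file name says that peaks in blacklisted sequence and on the mitochondrial chromosome were removed, and the D5 numbering has no gap. These spans covered 157 Mb, 6.37% of the chromosome length up to the last region, and held 5.58% of the closed regions below the 90th percentile of fold. They held 30.2% of those from the 90th to the 95th percentile, 43.8% of those from the 95th to the 99th, 25 of 32 up to the 99.9th, and 16 of 18 above it. All 8 strongest closed regions, near Pex2, Samd9l, Col19a1, Lars2, Zc3h7a, Filip1l, Mc2r and Tra2a, with D5 folds of 25.7 to 37.2, lay in such spans. They were absent from the GLI1 list too, whose file name gives the same removal. In a span, a loss of accessibility and a removed peak cannot be told apart.

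Outside the spans, 17973 closed regions remained. The strongest, with D5 folds of 15.7 to 18.7, lay near Tecrl, Ifi202b, Slc38a11, Cetn3, Pabpc4l, Pter, Zfp939 and Dsel. Those near Ifi202b, Cetn3 and Zfp939 had a region in the GLI1 list, with folds of 4.04, 4.04 and 8.25. These strongest closed regions were narrow, 243 to 378 bp, beside a median width of 622 bp in the strongest decile of the D5 list. The strongest opened regions were 1397 to 3297 bp wide, beside a median of 1652 bp in the strongest D7 control decile.

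**Figure D2:**
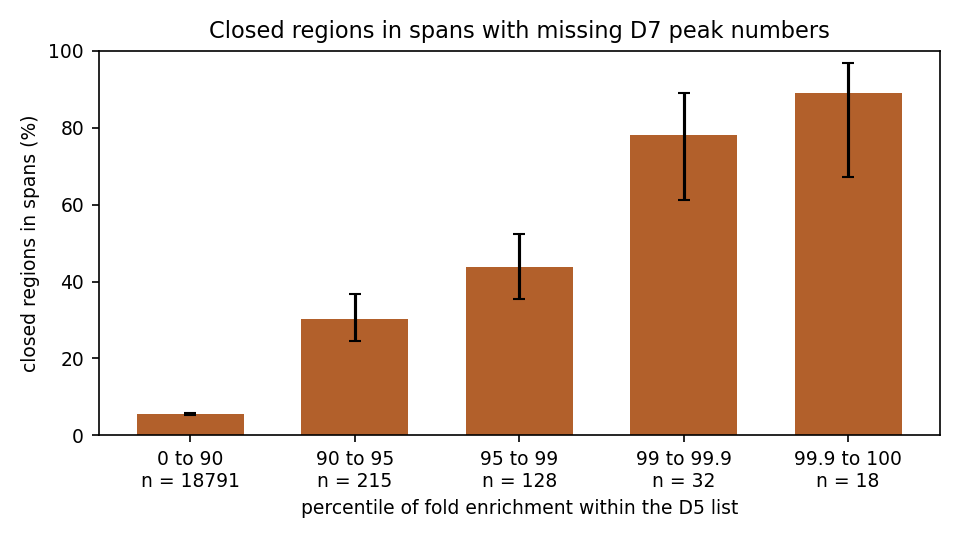
Percent of closed regions (y axis) that lay in spans of the genome where peak numbers are missing from the D7 control list, by percentile of fold within the D5 list (x axis, with the number of regions); bars are Wilson 95% intervals. The share was 5.58% below the 90th percentile and 88.9% (16 of 18) above the 99.9th.

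Regions of only 1 list were mostly far from gene starts. Over the 18 chromosomes with listed starts, 53.8% of kept D7 control regions and 54.4% of kept D5 regions lay within 1 kb of a start, against 8.86% of opened and 5.43% of closed regions. Beyond 100 kb of any listed start lay 29.8% of opened regions (95% interval 29.2 to 30.4) and 42.6% of closed regions (41.9 to 43.3). Opened regions were inside a gene in 52.5% of cases and closed regions in 43.8%, against 56.4% of kept D7 control and 58.8% of kept D5 regions. Closed regions were the class farthest from gene starts.

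Few gene starts were open at only 1 of the days. A start was called open when a region lay within 500 bases of it. Of 16457 genes with a listed start, 9245 (56.2%) were open in both control lists, 648 (3.94%) in the D7 control list only, 663 (4.03%) in the D5 list only, and 5901 in neither. With a −log10 q of 5 or more required, the single-day classes became unequal, with 1220 D7-only and 490 D5-only genes. This q was reached by 94.1% of kept D7 control regions and by 74.4% of kept D5 regions. A start open at both days, such as that of Actc1, could thus become D7-only when its D5 region dropped out. The part of this in the counts was not tested. The GLI1 list held a region at 83.5% of the D7-only genes and at 27.1% (180) of the D5-only genes. Both classes carried limits of the lists: 266 of the 663 D5-only starts lay in spans with missing D7 numbers, including 152 of the 169 at or above the 80th percentile of fold, and of the 75 D7-only starts at or above the 80th percentile, 26 were still D7-only when 1000 bases were allowed. Genes in 1 state at the deposited threshold, at a −log10 q of at least 5, within 1000 bases and, at D5, outside the spans numbered 418 (2.54%) for D7 only and 181 (1.10%) for D5 only, and are called stable below. A region at a stable start can still overlap a region of the other list farther from the start.

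The stable D7-only starts of highest fold were led by Zmiz1, a transcriptional co-regulator (70.6; GLI1 list 82.1), and Efna5, an ephrin ligand (57.6; 60.7). Fat4, an atypical cadherin, had 51.7 (GLI1 list 100.2), Zfp503 had 49.5 and Ssbp4 had 48.6 (GLI1 list 12.1). Fscn1, Emilin1, Meis2, Maml3 and Ajuba followed at 48.4 to 37.6, all also present with GLI1. The highest fold of the D5 list was 37.2, against 129 in the D7 control list, so stable starts were compared by percentile within their own list. The 10 stable D5-only starts of highest fold lay between the 86.9th and the 98.2nd percentile. The 10 D7-only starts just named lay between 91.27 and 98.95, so the ranges overlapped. Rasgrp3, an exchange factor for Ras-family proteins, had 14.5, Vip, a neuropeptide, 12.8, and Myo3a, an unconventional myosin, 12.5. Zfp42 had 11.9, and with Mybpc1 it was 1 of 2 among these 10 D5-only starts with no region in the GLI1 list.

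Pluripotency genes came first in the order of stages. Zfp42 (Rex1), a marker of naive embryonic stem cells, was a stable D5-only start at the 91.9th percentile of the D5 list (fold 11.9; chr8:43306935-43307196). Pou5f1 and Nanog, core factors of pluripotency, had no region at a listed start at either day, and Esrrb, an orphan receptor of stem cells, was open at both, with a fold of 8.25 at D5 and 6.84 at D7. Of 4 pluripotency markers, 2 were thus open at D5 and 1 at D7. The signal Fgf4 was D5-only with a weak region (4.63) that did not reach a −log10 q of 5.

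Among the streak and mesoderm genes, T was open at D5 only, with a fold of 6.59 (60.4th percentile; chr17:8433859-8434314), and the GLI1 list had a weak region there (3.34). Evx1, a streak homeobox factor, was D5-only at 5.07 with none in the GLI1 list. Mixl1 had a D5 region at a gene end (4.95; used because no start is listed) and Nodal one at its start (5.23), neither with a −log10 q of 5; both had a region in the GLI1 list, at 3.86 and 3.51. Eomes was D5-only at 4.21, in a span with missing D7 numbers, and open in both lists within 1000 bases. Mesp1 and Tbx6, a factor of presomitic mesoderm, went the other way: they were stable D7-only starts, with folds of 3.96 and 6.84. Of the 4 early mesoderm markers, T, Eomes and Mixl1 were open at D5 only and Mesp1 at D7 only.

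The label of cardiac progenitors was checked on 9 markers. Of these, Nkx2-5, Isl1, Mef2c, Tbx20, Kdr and Pdgfra were open at both days, Hand2 at D7 only with a weak region (3.06), and Gata4 and Tbx5, read at gene ends because no start is listed, at neither. Open at both days were thus 6 of 9 markers, beside 56.2% of all genes, a share near that background. Isl1, the LIM homeobox factor of the second heart field, was at the 61.2nd percentile of kept loci at D5 (fold 9.27) and the 69.8th at D7 (fold 28.1), a difference of 8.598 points by fold and −1.64 by −log10 q. Nkx2-5 was weak at both days (5.43 and 3.24), with no region in the GLI1 list and below a −log10 q of 5 in both control lists. The stable D7-only heart genes were Meis2 (42.1), Meis1 (32.0), both TALE homeobox factors, and the second heart field genes Wnt11 (13.0) and Tbx1 (11.5). Prdm16 was D7-only (22.9) but open in both lists within 1000 bases. Of the contractile markers, Actc1 was open at both days, Tnnt2 at D7 only at the lowest fold of that list (2.52), and Myh6 and Myl7 at neither, so 2 of 4 cardiomyocyte markers were open at D7. Nppb, a natriuretic peptide gene, was a stable D5-only start (8.09), and Myh7 was D5-only at 3.29.

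Markers of other cell types were mixed. The endothelial markers Cdh5, Pecam1 and Tie1 had no region at either day (0 of 3; Cdh5 and Pecam1 read at gene ends, with a D7 region within 1000 bases for Cdh5). Of the whole endothelial and blood list, 7 of 12 starts (58.3%) were open at both days, a share near the 56.2% of all genes. Kdr, Flt1, Cd34 and Egfl7 were among them. Tek, an endothelial receptor, was a stable D5-only start (5.99) and Fli1, an ETS factor, had a D7-only region at a gene end (34.0). The endoderm marker Foxa2 was open at both days while Sox17 and Ttr were not, and Foxa1 was a stable D7-only start (4.50). The neural markers Sox1 and Olig2 were open at both days and Pax6 at neither. Hes5, a Notch target, was a stable D7-only start (6.66), and Zic1 a stable D5-only one (7.79; GLI1 list 7.20). The part of other cells in the cultures in any of these values was not tested.

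Of the Hedgehog pathway genes with a listed start, 11 of 16 (68.75%) were open at both days, beside 56.2% of all genes. At D7 only, 2 were open (12.5%, beside 3.94% of all genes), of which 1 was stable. At D5 only, 1 was open (6.25%, beside 4.03%), and it was not stable. The start of Ptch1, the receptor, was in a D7 control region with a fold of 36.4 (90.6th percentile; 4448 bp wide; GLI1 list 49.7) and no D5 region within 500 bases, although a D5 region lay within 1000 bases. Gli1 had a D7-only region at a gene end (11.2; GLI1 list 31.9) and no D5 region within 1000 bases. Dhh, a ligand, was a stable D7-only start (3.78), and Gpr161, a negative regulator of the pathway, was D5-only at 4.01. The starts of Smo, Sufu, Gli2, Gli3 and Hhip, a ligand-binding inhibitor and itself a target, were open at both days.

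**Figure D3:**
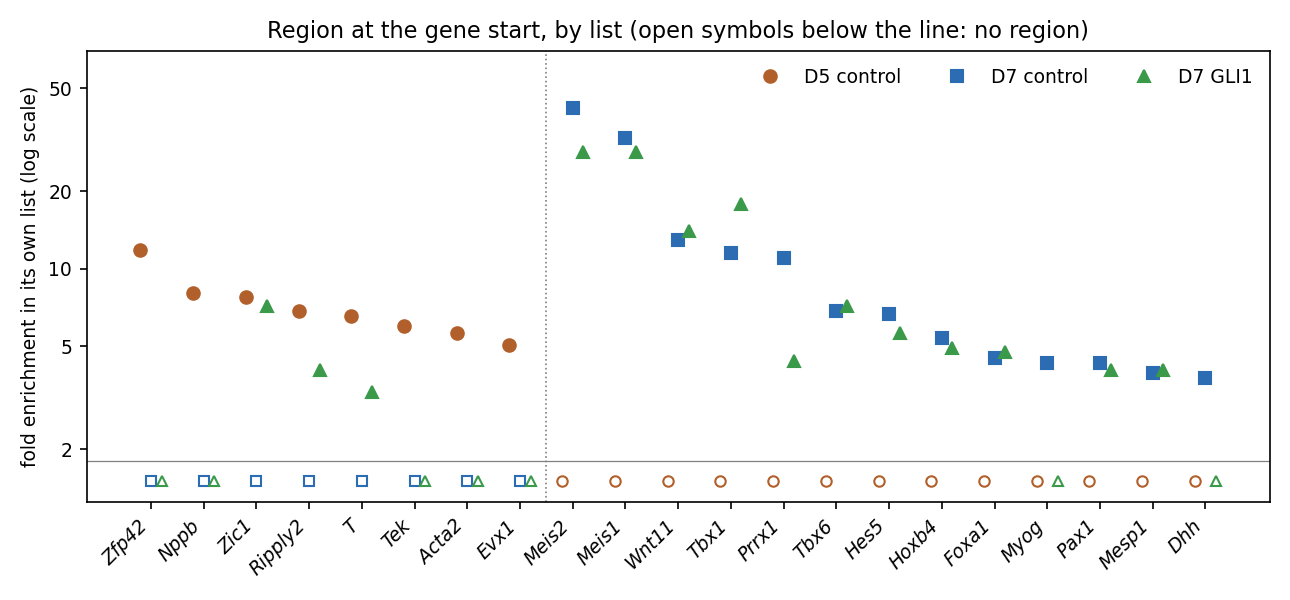
Fold enrichment (log scale, y axis) of the region at the start of the 21 listed genes whose start stayed in 1 state under every setting, in the D5 control, D7 control and D7 GLI1 lists; open symbols below the line stand for no region. The 8 D5-only starts lie between 5.07 and 11.9 and the 13 D7-only starts between 3.78 and 42.1, and folds are not comparable between the D5 list and the D7 lists.

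Over the 14 gene lists, 201 genes had a listed start, of which 107 were open at both days. D7-only starts numbered 22 (10.9%, beside 3.94% of all genes) and D5-only starts 15 (7.46%, beside 4.03%); the stable ones were 13 (6.47%, beside 2.54%) and 8 (3.98%, beside 1.10%). The remaining stable genes were the D7-only Prrx1 (10.98), a mesenchymal homeobox factor, Hoxb4 (5.40), Pax1 (4.32) and Myog (4.32), and the D5-only Ripply2 (6.83), a somite regulator, and Acta2 (5.66), smooth muscle actin. Cardiac transcription factors had 4 D7-only and 0 D5-only starts of 13, paraxial mesoderm and skeletal muscle genes 3 and 1 of 13, and second heart field genes 2 and 0 of 10. Primitive streak genes had 2 D7-only and 5 D5-only starts of 18, but 5 and 2 at a −log10 q of at least 5, so that order depended on weak D5 regions. All 15 housekeeping genes with a listed start were open at both days. Actb, which has no listed start, had a D7 region with a fold of 61.0 at a gene end. No D5 region lay within 1000 bases of a gene end of Actb. The D7 region was nevertheless a kept one, so it overlapped a D5 region farther from that end.

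**Figure D4:**
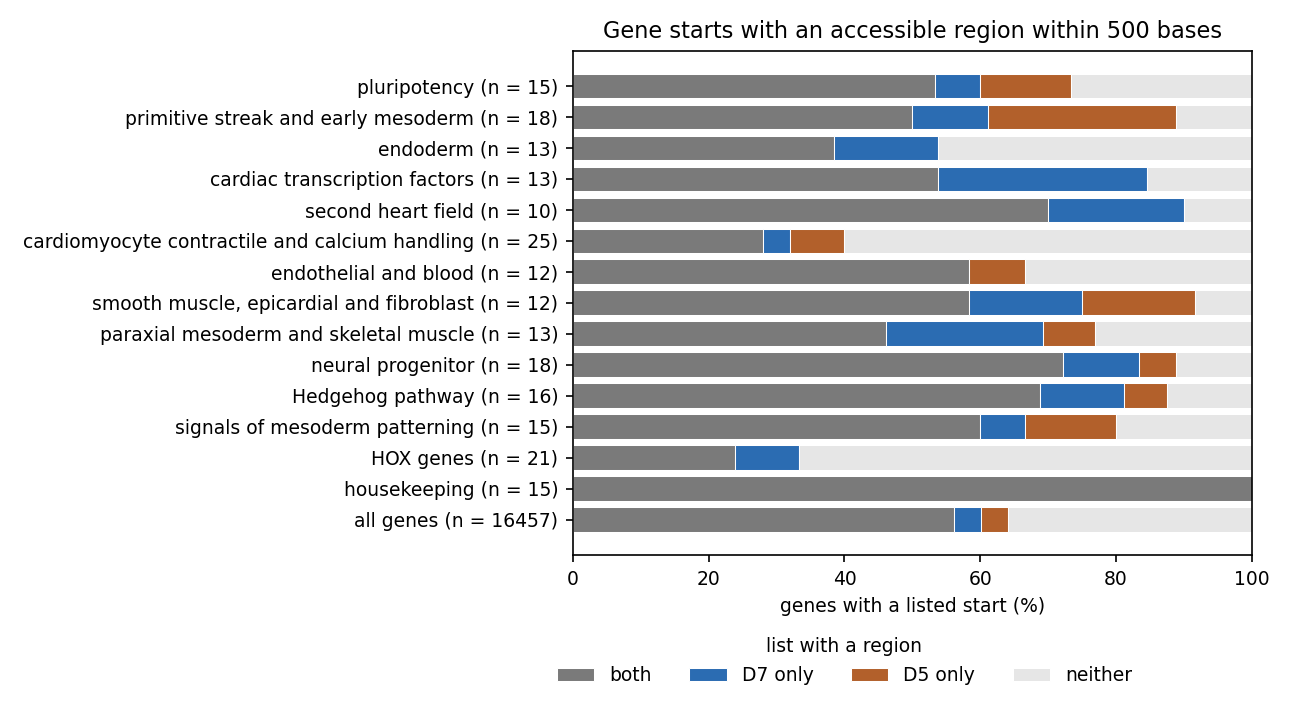
Percent of genes (x axis) whose listed start had a region within 500 bases in both control lists, in 1 of them or in neither, for the 14 gene lists and for all 16457 genes, with the number of genes in each row. All 15 housekeeping starts were open at both days, and cardiac transcription factors had 4 D7-only and 0 D5-only starts of 13.

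The promoters of starts open at only 1 day resembled each other in base composition. All 957 D7-only and 808 D5-only starts were used, not only the stable ones. D5-only starts in spans with missing D7 numbers were therefore included. The part of such starts in the shares below was not tested. The 250 bases upstream had a mean GC content of 57.02% for D7-only starts and 56.8% for D5-only starts, against 62.2% for starts open at both days and 46.4% for those open at neither. The GC box was present in 42.3% of D7-only (95% interval 39.2 to 45.5) and 48.4% of D5-only promoters (44.96 to 51.8), against 43.4% of all 20085 listed promoters. The CCAAT box was in 28.5% of D7-only promoters (25.8 to 31.5) and 35.8% of D5-only promoters (32.5 to 39.1), against 35.3% of all. The octamer of the Zfp42 promoter was in 2.48% of D5-only (1.61 to 3.79) and 0.836% of D7-only promoters (0.424 to 1.64), against 1.59% of all. The T-box half-site was in 1.86% of D5-only and 1.15% of D7-only promoters, against 1.01% of all. The TATA box was in 9.16% and 7.94%, against 11.7% of all, and the GATA motif in 8.54% and 6.69%, against 8.72%.

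Kept regions were compared by rank over 1 common set. Overlapping regions of both lists made 16841 kept loci, each ranked by its strongest fold in each list and given a percentile from 0 to 100. The ranks went together across loci, with a Spearman rho of 0.64 by fold and 0.76 by −log10 q, a description across loci that are not independent. By fold, 2490 loci (14.8%) ranked at least 25 percentile points higher at D7 and 2417 (14.4%) at least 25 points lower; 1519 and 1552 did so by −log10 q as well. Width moved with the rank. The loci that ranked higher had a median D7 width of 1579 bp, and 26.5% joined several D5 regions; those that ranked lower had 531 bp and 4.84%, and all kept loci 965 bp and 12.0%. The part of width and of calling in these ranks was not tested.

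The largest upward rank differences were at loci within or nearest to Kdm6b, Mrc2, Nuak1, Gja1, Sin3a, Ets1, Tomm20 and Zfp516. The locus in Kdm6b, a histone H3 lysine demethylase gene, went from the 8.95th percentile at D5 (fold 4.48) to the 98.9th at D7 (78.8), with 77.2 in the GLI1 list; by −log10 q the difference was 54.3 points. The locus in Mrc2, a collagen receptor gene, went from the 8.05th to the 96.7th percentile, by 88.7 points on fold and 89.8 on −log10 q. The locus in Sin3a, a co-repressor gene, differed by 85.6 points on fold but by 26.6 on −log10 q. The locus 77.7 kb from Ets1, an ETS factor, went from the 11.6th to the 97.1st. All 8 were also in the GLI1 list, with folds of 27.2 to 77.2.

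The largest downward rank differences included loci near Usp38, Scn7a, St6gal2, Fgf10, Slc4a4, Arhgef17 and Ttc29. The locus near Usp38 went from the 98.8th percentile (D5 fold 15.9) to the 2.51st (D7 fold 3.24). The locus within Fgf10, the second heart field ligand, lay 44.5 kb from its listed start and went from the 98.3rd (15.5) to the 6.36th percentile (3.78). Of these 7 loci, those near Scn7a, Arhgef17 and Ttc29 were in the GLI1 list, and 4 had no region there. All 7 were 200 to 377 bp wide at D7, so strong D5 regions had remained as marginal D7 peaks.

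**Figure D5:**
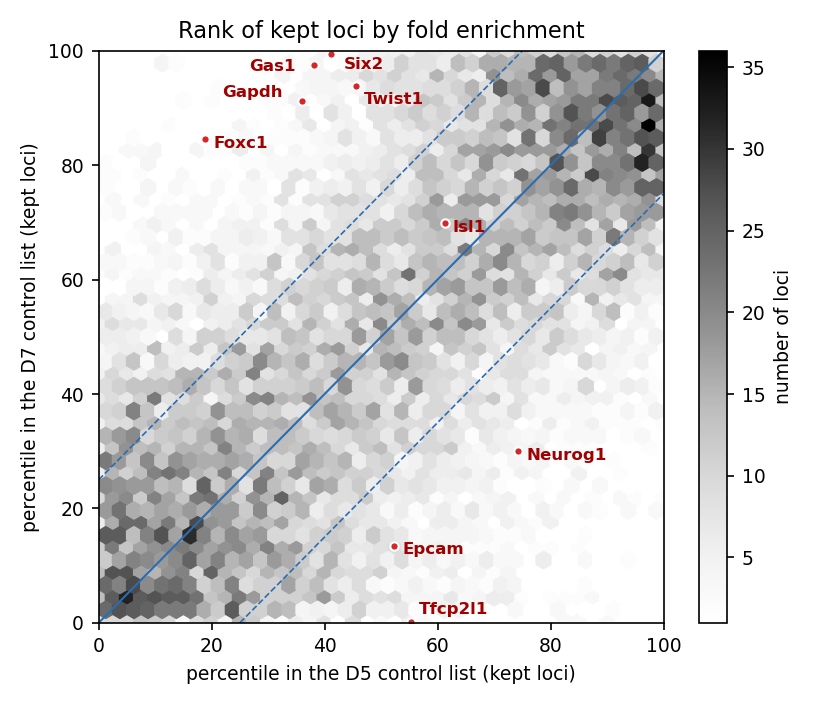
Percentile of fold at D7 (y axis) against that at D5 (x axis) for the 16841 kept loci; shading gives the number of loci in a cell, the solid line equal rank, and the dashed lines a difference of 25 points. Red points are the loci at the starts of named genes: Foxc1, Gas1, Six2, Gapdh and Twist1 lie above the upper dashed line, and Neurog1, Epcam and Tfcp2l1 below the lower one.

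At listed starts, 9214 genes had a kept locus, of which 1373 (14.9%) ranked at least 25 points higher at D7 and 974 (10.6%) at least 25 points lower. Hedgehog pathway genes ranked higher in 6 of 11 cases and lower in 0, with a median difference of 29.2 points (1.92 over all starts). They were the co-receptor Gas1, up 59.4 points (D5 fold 6.87, D7 fold 70.02), the transcription factor Gli2, up 58.0 (4.99 and 30.8), Sufu, which holds GLI factors inactive, up 36.3, Disp1, which releases ligand, up 32.7, Evc2, a ciliary protein, up 30.9, and Gli3, up 29.2. By −log10 q, 4 of the 11 passed 25 points and the median difference was 13.2. Of the 6 just named, Sufu (9.002) and Gli3 (12.5) did not pass. Over all 9214 starts, 675 ranked at least 25 points higher by −log10 q and 529 lower, with a median difference of 0.754. Smooth muscle, epicardial and fibroblast genes ranked higher in 4 of 7 cases on either measure: Twist1, Pdgfra, Twist2 and Vim, by 43.7 to 48.4 points of fold rank and by 25.9 to 47.7 points of −log10 q rank. Housekeeping genes ranked higher in 6 of 15 cases by fold, Gapdh by 55.2 points, but in 1 of 15 by −log10 q, so a higher rank by fold was also met in genes of no stage.

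Single starts with large differences were spread over other lists. Foxc1, a forkhead factor of mesoderm, ranked 65.6 points higher (5.24 and 41.6), and Six2, of the second heart field list, 58.3 points higher (7.18 and 85.3). The starts that ranked lower included Tfcp2l1, a naive pluripotency factor, by −55.2 points, Neurog1, a neurogenic factor, by −44.2, Epcam, an epithelial adhesion molecule, by −38.8, Sema3c, an outflow tract guidance ligand, by −36.9, and Mesp2, a somite factor, by −30.0. Contractile genes ranked lower in 2 of 7 cases and higher in 0, and Actn2, a sarcomere protein, stood at −36.8 points. Pluripotency starts ranked higher in 2 of 8 cases and lower in 2, endoderm 2 and 1 of 5, streak genes 2 and 1 of 9, cardiac factors 2 and 1 of 7, second heart field 3 and 1 of 7, and mesoderm signals 2 and 2 of 9. Neural genes ranked higher in 2 of 13 and lower in 3, endothelial genes 1 and 0 of 7, and paraxial mesoderm (6) and HOX genes (4) had 0 in either direction. By −log10 q the counts were 0 and 1 for pluripotency, 1 and 1 for endoderm, 2 and 2 for streak genes, 1 and 1 for cardiac factors and 2 and 1 for the second heart field. They were the same as by fold for the other lists just named. Over all starts the counts by −log10 q were 675 and 529 of 9214.

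Opened and closed regions were also counted by the nearest protein-coding gene within 100 kb. Over all genes 18406 regions were opened (53.1% of the D7 control regions so assigned) and 15235 closed (45.3% of the D5 regions), so opened outnumbered closed. The lists with the largest difference in number, which depends on list size, were neural progenitor genes (65 opened and 29 closed), second heart field genes (74 and 38), paraxial mesoderm and skeletal muscle genes (59 and 28), smooth muscle, epicardial and fibroblast genes (51 and 25) and Hedgehog pathway genes (51 and 32). In that order, their opened shares were 67.0%, 66.1%, 72.0%, 65.4% and 56.7%, beside 53.1% over all genes. Their closed shares were 43.9%, 45.8%, 51.9%, 43.9% and 42.7%, beside 45.3% over all genes. These 5 lists, endothelial and blood genes (50 and 38) and cardiac transcription factors (74 and 73) had more opened than closed regions under all 4 settings tried. All genes together did so too. They had 15712 opened and 12058 closed regions within 25 kb, and 15088 and 6555 at a −log10 q of at least 5. Among the 20000 strongest regions of each list they had 7770 and 6840. For endothelial and blood genes the opened and closed shares were 69.4% and 61.3%, and for cardiac transcription factors 63.2% and 60.3%. Pluripotency genes (26 and 23), HOX genes (21 and 15) and housekeeping genes (17 and 5) had more opened regions too, but fewer when the 20000 strongest regions of each list were compared. Primitive streak genes (36 and 41), endoderm genes (24 and 28), contractile and calcium handling genes (39 and 43) and mesoderm signals (41 and 43) had more closed regions, and all 4 had more opened ones at a −log10 q of at least 5. In these 4 lists the opened shares were 56.25%, 64.9%, 62.9% and 56.9%, and the closed shares 57.7%, 65.1%, 63.2% and 55.8%. Both shares were above those over all genes in each of them.

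Single genes gave the lists their extremes. Among the cardiac factors, Prdm16 had 15 opened and 1 closed region and Meis2 14 and 6, whereas Zfpm2, a GATA cofactor, had 2 and 10 and Tbx20 1 and 5. In the second heart field list the ligand Bmp7 had 13 and 1, against 1 and 4 for Fgf10 and 2 and 5 for Sema3c. Hedgehog genes were divided: the co-receptor Gas1 had 9 and 1 and Ptch1 7 and 1, but Gli3 had 3 and 12 and Hhip 0 and 2.

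The other lists held genes of both kinds as well. Fli1 had 11 opened and 0 closed regions and Eng 4 and 0, against 4 and 9 for the VEGF receptor Flt1 and 1 and 5 for Tek. The mesenchymal factors Twist2 and Tcf21 had 9 and 2 and 7 and 1, and the contractile genes Myh11 and Cnn1 of the same list 0 and 2 each. Meox1 had 7 and 0 and Pax7 9 and 2, against 0 and 4 for Ripply2 and 2 and 6 for Pax1. Irx3 had 9 and 2 and Msx1 0 and 5 in the neural list. Among streak genes Foxc1 had 9 and 3 and Pdgfra 3 and 0, against 0 and 4 for Evx1 and 1 and 5 for Gsc. The endoderm factor Foxa2 had 0 and 7 and Cxcr4 3 and 6, against 6 and 1 for Prox1 and 3 and 0 for Epcam. Sox2 had 7 and 1 and Klf4 5 and 1, against 0 and 3 for Dppa4 and 1 and 4 for Zfp42. Of the calcium handling genes, the channel Cacna1c had 9 and 3 and the release channel Ryr2 3 and 8. Of the signals, Wnt11 had 5 and 1 and Bmp2 1 and 7.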

How the data were processed

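Per the submitters' processing notes, the tools were Bowtie2 2.3.2, SAMtools 1.5, Picard and MACS2 2.1.1, with build mm10. The authors deposited 1 pooled peak list for each group of libraries. In the deposited lists the authors give each peak a fold enrichment (a ratio to the background), a −log10 q, a score that is 10 times the −log10 q, and the offset of the summit in bases. Read totals were not used here, so depth is unknown.

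Peaks on chromosomes 1 to 19 were merged within a list with Python 3.11.15 and numpy 2.4.6, checked against bedtools 2.31.1, and overlaps needed at least 1 base. Shares carry Wilson 95% intervals (scipy 1.17.1). The counting steps were tested on simulated data. Gene starts and promoters came from RefSeq tables of GRCm38.p6, which list starts for 16457 of 20665 genes and 201 of the 283 autosomal genes of the 14 gene lists; either gene end replaced a start not listed, and starts on chromosome 18 were not analysed here. The D7 control list holds spans with missing peak numbers, and the alternatives that set these aside were chosen after seeing the data. The members, gene lists and named genes were chosen with earlier results of these data known. Named were 16 stage genes, the 8 loci and regions most extreme each way, list genes open in 1 control list, the 2 genes of each list with the most opened or closed regions, and further starts with large rank differences, chosen after their values were seen; some items the rule names are not reported here. The alternatives were stricter q, equal list lengths, equal windows, other overlaps and gaps, chromosome X, and other distances.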

Additional observations from a re-analysis of the deposited data

How the results depend on the processing

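The opened count kept within 1.5 times of 21051 except at equal list lengths (8782, of the 20000 strongest regions each). Closed regions numbered 8278 under a stricter q (−log10 q of at least 5) and 8524 at equal lengths. The kept percent of D7 control and of D5 regions was 43.9 and 49.0 with an overlap of 50% of the shorter region, 45.5 and 47.2 in windows of 250 bases either side of the summit, 43.3 and 62.4 at the stricter q, 56.1 and 57.4 at equal lengths, and 49.6 and 48.4 after merging regions under 500 bases apart. By −log10 q, 1619 loci ranked at least 25 points higher and 1610 lower. D7-only starts numbered 1220 at the stricter q and 418 under all settings; D5-only starts numbered 181 under all settings and 397 outside spans with missing peak numbers.

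The difference of opened minus closed regions turned at the stricter q for primitive streak (12), endoderm (10), contractile (13) and mesoderm signal genes (16). It turned at equal lengths for pluripotency (−8), primitive streak (4), mesoderm signal (7), HOX (−1) and housekeeping genes (−2). Over all genes, opened regions outnumbered closed ones at both settings. Their numbers were 15088 and 6555 at the stricter q, and 7770 and 6840 at equal lengths. The cause was not tested. No paired analysis was possible because a single list stands for all libraries of a group. Leaving out single libraries was impossible too. Depth is unknown, so an absent region was not detectable in its list, and absence of access was not shown.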

Other observations

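Of 10639 windows of 200 kb with a region, 4002 had more opened than closed regions and 4921 more closed than opened. At the extreme of opened minus closed, the window at chr8:120400001-120600000, with Gins2 and Gse1, had 27 opened and 2 closed regions. The histone gene window at chr13:23400001-23600000 had 26 and 2, beside 18 kept D7 control regions. The window of Arhgap23 and Srcin1 at chr11:97400001-97600000 had 19 and 1, and that of Ahdc1, Fgr and Wasf2 at chr4:133000001-133200000 had 18 and 1. The neighbouring Gse1 window at chr8:120200001-120400000 had 19 and 1. Over all windows, the central 95% of the differences of opened minus closed ran from −4 to 7.

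At the other extreme were chr10:108400001-108600000, with Pawr and Syt1 (2 opened and 16 closed), and chr12:118400001-118600000 (0 and 10), neither with a closed region in a span of missing peak numbers. In the windows at chr9:3000001-3200000 (0 and 12) and chr14:4000001-4200000 (0 and 9), every closed region lay in such a span. The same held for the 10 closed regions in the protocadherin gamma cluster on chromosome 18.

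The 8 strongest D5-only starts, those of Pcca, Atp5g1, Txn2, Dynlt1c, Stard9, Nsfl1c, Lsm8 and Ppp6c, all lay in spans with missing numbers, with D5 folds of 15.7 to 18.5 and no region in the GLI1 list. The strongest D7-only starts that were open at both days within 1000 bases were those of Jund (90.9) and Gmfg (72.5).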
